A study of Drosophila melanogaster with 6 samples.

Results

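The genes described here encode structural proteins of the insect cuticle in Drosophila melanogaster. They were chosen by name, as genes whose symbol starts with Cpr, Lcp, Ccp84 or Twdl, or is Pcp or Acp65Aa. Of the 11953 genes with a probe set of their own on the array, 102 met this rule: 66 Cpr, 24 Twdl, 7 Lcp and 3 Ccp84 genes, Pcp and Acp65Aa. A further 20 genes of the RefSeq table bear such names but have no probe set of their own in the probe table used, among them the larval cuticle genes Lcp1 to Lcp4, and were not analysed here. Expression was measured in RNA of whole male larvae in the third instar on Affymetrix Drosophila Genome 2.0 arrays. The mutant group (3 arrays) was y+ w roX1- roX2-/ Y and carried the roX1 allele SMC17A. The control group (3 arrays) was y+ w roX1+ roX2-/ Y, so that males of both groups were mutant for roX2, and the control was not wild type at both roX genes although its title says so. The 3 RNA preparations of a genotype were independent, and each came from 50 pooled larvae. The labels give no finer staging within the instar. Levels of roX1 and roX2 themselves were not analysed here, so the genotypes rest on the labels.

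The cuticle is a layered coat of chitin fibres and proteins that the epidermis, the tracheae and the foregut and hindgut secrete on their outer face and replace at each moult. Cpr, Lcp, Pcp, Acp65Aa and Ccp84 genes encode proteins with the Rebers and Riddiford domain, which binds chitin. The Twdl (Tweedle) genes form a separate family of cuticle proteins, and TwdlD is known for mutations that make larvae and pupae short and stout. Many cuticle genes are used at 1 stage only, and Lcp, Pcp and Acp65Aa were named for the larval, pupal and adult cuticle in which their products were first found. The roX RNAs belong to the MSL complex, which binds the male X chromosome and raises its transcription.

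Array signals are given on a linear scale on which the median autosomal gene kept for testing stands at 100 on every array. On this scale the median probe set had a signal of 28.0. A gene was kept when its probe set lay in the upper 50% of all probe sets by mean log2 signal. This left 32 of the 102 cuticle genes, with mean signals between 32.5 and 2331 (median 96.5). The kept genes were 24 Cpr, 3 Lcp, 3 Twdl and 1 Ccp84 gene and Pcp. The other 70 had mean signals between 1.27 and 115, among them Acp65Aa, 21 Twdl genes and 2 Ccp84 genes. Both group means reached the median probe set in 25 members, the mutant mean alone in 12, the control mean alone in 2, and neither in 63. The mutant and control arrays correlated at 0.972 or higher and 0.984 or higher within their groups, and at 0.889 to 0.926 between groups, across genes, which are not independent replicates. Only 3 arrays per group limit the precision of every value, and in RNA of whole larvae fewer cells of a type and less RNA per cell cannot be told apart.

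Cuticle genes moved in both directions in the mutant. Of the 32 kept members, 15 were higher, 11 were lower and 6 did not pass (limma, Benjamini-Hochberg adjusted p under 0.05 over 7801 genes). Over all genes tested 23.1% were higher and 32.4% lower, so that most kept members, like 55.5% of all genes, were called. The largest rises were those of Cpr47Ec, Cpr65Au, Cpr47Eb, Cpr49Af, Cpr65Av, Cpr11B, Cpr65Aw and Cpr11A. Other called rises were smaller, down to a log2 difference of 0.36 for Twdlalpha. The falls were led by Cpr64Ac, Cpr47Ea and the pupal cuticle gene Pcp. Of the 32 kept members, 7 reached the filter through 1 group alone, 6 of them higher and 1 lower in the mutant, and such genes could hardly fail to differ. Among the 25 that reached the median probe set in both groups, 9 were higher, 10 lower and 6 did not pass. Changes over 2-fold were counted in 4 of these 25 upward and 3 downward, and in 5 of the other 7, all upward, beside 3.11% and 3.47% of all genes (6.59% in either direction). The median log2 difference, mutant minus control, was -0.11 over the 25, against -0.06 over all genes tested. With the 7 included it was 0.31, so its sign rests on them. All 3 mutant arrays lay above all control arrays for 6 of the 25 and below them for 11, beside 26.4% and 36.9% of all genes. Without rescaling of the deposited values the median of all genes was 0.07 in place of -0.06 and rises made up 58.5% of all calls in place of 41.7%. The kept members then gave 15 rises and 10 falls.

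**Figure D1:**
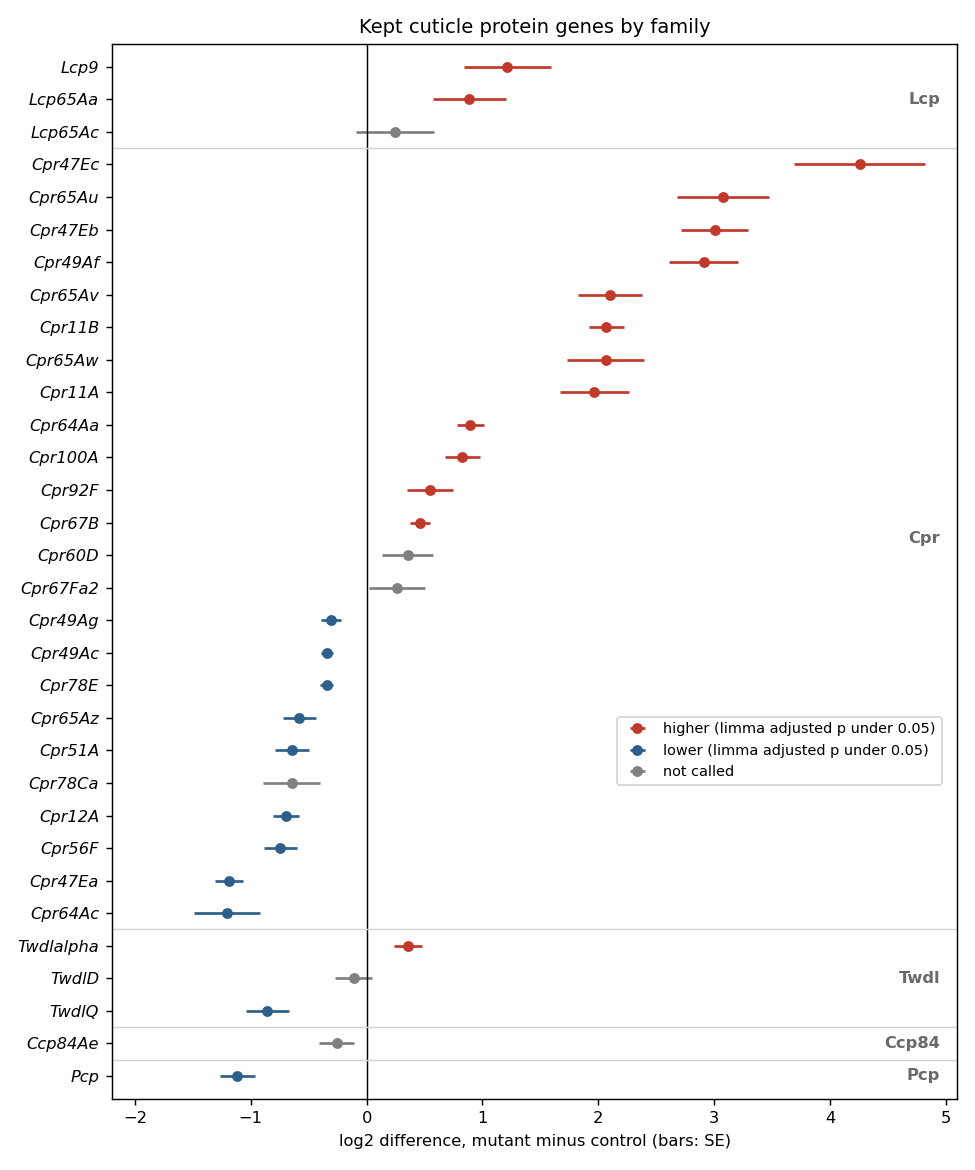
Log2 difference (mutant minus control, bars are the SE of the limma fit, n = 3 arrays each) of the 32 kept cuticle protein genes, grouped by family. The Cpr family spans both directions, from -1.20 for Cpr64Ac to 4.25 for Cpr47Ec.

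Of the 3 kept genes named for the larval cuticle 2 rose, beside 23.1% of all genes higher and 32.4% lower. In both of these risers the groups overlapped, and both calls were lost on leaving out most single arrays. Lcp9, one of the brightest members, had signals of 574, 1305 and 1237 on the mutant arrays, against 672, 390.2 and 282 on the control arrays. Mutant array 1 lay below control array 1. The mean was 1039 ± 404 in mutant larvae, against 448 ± 201 in control larvae (SD, n = 3 each), a log2 difference of 1.22 (SE 0.379, limma adjusted p = 0.0257). The rise of Lcp9 did not pass without mutant array 2, mutant array 3, control array 2 or control array 3 (adjusted p = 0.0865, 0.0718, 0.0823 and 0.0858, limma) or with robust eBayes (0.0740).

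Lcp65Aa stood at 32.5, 70.9 and 78.6 on the mutant arrays, against 36.6, 31.4 and 25.0 on the control arrays. Mutant arrays 2 and 3 lay above every control, and mutant array 1 lay inside the control range. Its log2 difference was 0.89 (SE 0.317, limma adjusted p = 0.0434), and the call was lost when any array other than mutant array 1 was left out, with adjusted p between 0.0525 and 0.135 (limma). A dimmer probe set of the same gene, which was not kept, read 22.6, 67.5 and 82.8 in mutant larvae, against 17.1, 9.87 and 3.13 in control larvae. Lcp65Ac had 112, 242 and 238 in mutant larvae, against 226, 147 and 115 in control larvae and did not pass (log2 0.25, SE 0.336, limma adjusted p = 0.556). Without mutant array 1 its difference was 0.62 (limma adjusted p = 0.0492).

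Among the Lcp genes below the filter, Lcp65Ag3 differed most. It stood at 84.2, 155 and 125 on the mutant arrays, against 5.23, 5.88 and 5.02 on the control arrays. The groups were far apart, and the gene was left out only because its control signal drew the mean log2 signal down. In a fit without the signal filter, which called 17.5% of all genes higher and 25.8% lower (43.3% in all), it passed (limma adjusted p = 3.22e-05). With control signals this low its fold is uncertain, and with 50 added to the signal before the logarithm the log2 difference was 1.61. Lcp65Ag3 has similar neighbours, and how far they share its probe signal was not examined. Lcp65Ad, also dim, went the other way, at 4.93, 4.79 and 6.84 in mutant larvae, against 17.4, 13.4 and 10.4 in control larvae (limma adjusted p = 0.00356 without the filter). Lcp65Ae and Lcp65Af stayed below the median probe set on all 6 arrays.

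The Cpr genes are the largest cuticle family of insects, and their members differ in the parts of the body and the stages in which they are used. Of 24 kept, 12 were higher, 9 lower and 3 did not pass, beside 23.1% of all genes higher and 32.4% lower. The risers Cpr47Ec, Cpr47Eb, Cpr65Au, Cpr65Aw, Cpr11A and Cpr64Aa reached the median probe set in the mutant group alone. These could hardly fail to be called higher, so the count shows no lean of the family upward. Cpr47Ec had the largest difference of the kept members. Its signal was 117, 402 and 440.2 on the mutant arrays, against 20.6, 19.9 and 7.24 on the control arrays. The mutant arrays all lay above the median probe set and the controls all below it. The fitted log2 difference was 4.25 (SE 0.564, limma adjusted p = 0.000613), or 2.34 with an offset of 50, and without mutant array 1 it was 4.87.

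Cpr47Eb read 199, 211 and 120.0 in mutant larvae, against 16.2, 32.2 and 18.7 in control larvae, with a log2 difference of 3.004 (SE 0.290, limma adjusted p = 0.000188). Here mutant array 3 was the lowest of the mutants. Cpr65Au stood at 73.8, 149 and 142 in mutant larvae, against 20.9, 16.4 and 7.66 in control larvae, a difference of 3.08 (SE 0.394, limma adjusted p = 0.000535). Cpr65Aw was at 53.0, 119 and 125 in mutant larvae, against 25.7, 25.8 and 16.4 in control larvae, with a difference of 2.06 (SE 0.333, limma adjusted p = 0.00141). For these 3 genes, as for Cpr47Ec, the control mean lay under the median probe set, so the groups are clearly apart but the size of each fold is uncertain. An offset of 50 brought the differences of Cpr47Eb, Cpr65Au and Cpr65Aw to 1.63, 1.38 and 1.001.

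Cpr49Af and Cpr65Av lay above the median probe set on every array of both groups. Cpr49Af had 471, 948 and 791 on the mutant arrays, against 116, 111 and 64.5 on the control arrays. Its mean was 737 ± 243 in mutant larvae, against 97.2 ± 28.4 in control larvae (SD, n = 3 each), a 7.52-fold rise (limma adjusted p = 0.000226). Cpr65Av read 171, 247 and 261 in mutant larvae, against 73.5, 56.0 and 34.1 in control larvae, and was 4.28-fold higher (limma adjusted p = 0.000592). In both genes the lowest mutant array exceeded the highest control array by more than 2-fold. With an offset of 50 the log2 difference was 2.39 in place of 2.91 for Cpr49Af and 1.40 in place of 2.10 for Cpr65Av.

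The X chromosome holds 8 members, of which 4 were kept and 3 of these were higher. Over all X-linked genes tested 10.3% were higher and 48.2% lower. Of the 3 risers, Cpr11A reached the filter through the mutant group alone and could hardly fail to be called higher. The count over so few genes therefore shows no lean of the X-linked members. Cpr11B had 100.1, 135 and 124 in mutant larvae, against 29.0, 32.9 and 23.9 in control larvae. The replicates of each group lay close together, and its log2 difference of 2.07 had the smallest error of the 9 rises over 2-fold (SE 0.151, limma adjusted p = 8.51e-05). Its control mean, 28.6, lay close to the median probe set, and with an offset of 50 the difference was 1.11. Its neighbour by name, Cpr11A, stood at 41.0, 71.7 and 85.0 in mutant larvae, against 17.9, 20.2 and 11.6 in control larvae (log2 1.97, SE 0.296, limma adjusted p = 0.00105). The control mean of Cpr11A was under the median probe set, and with an offset of 50 the difference was 0.78. Twdlalpha, the remaining riser, had 51.3, 48.8 and 41.2 in mutant larvae, against 34.2, 35.6 and 40.5 in control larvae. Its groups did not overlap, but mutant array 3 and control array 3 nearly met (log2 0.36, SE 0.118, limma adjusted p = 0.0323). The Twdlalpha call was lost without mutant array 1, mutant array 2, control array 1 or control array 2 (adjusted p = 0.0838, 0.104, 0.0921 and 0.0823, limma). Cpr12A was the X-linked member that fell, with 259, 252 and 210.4 in mutant larvae, against 439.7, 372 and 357 in control larvae (log2 -0.70, SE 0.115, limma adjusted p = 0.00154).

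Smaller rises were found in 4 autosomal Cpr genes. Cpr64Aa had 37.8, 47.7 and 46.4 in mutant larvae, against 23.4, 23.1 and 24.2 in control larvae (log2 0.89, limma adjusted p = 0.000576). Cpr100A read 109, 158 and 136 in mutant larvae, against 80.9, 80.0 and 64.9 in control larvae (0.83, limma adjusted p = 0.00236). The bright gene Cpr67B had 861, 910.1 and 758 in mutant larvae, against 659, 590.2 and 586 in control larvae (0.46, limma adjusted p = 0.00314). In these 3 genes every mutant array lay above every control array, and Cpr64Aa had a control mean under the median probe set (log2 0.35 with an offset of 50). Cpr92F stood at 91.1, 126 and 106 in mutant larvae, against 100.0, 62.3 and 63.2 in control larvae, so its groups overlapped at mutant array 1. Its log2 difference of 0.55 (limma adjusted p = 0.0463) did not pass without mutant array 2, mutant array 3, control array 2 or control array 3 (0.147, 0.0859, 0.153 and 0.144).

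**Figure D2:**
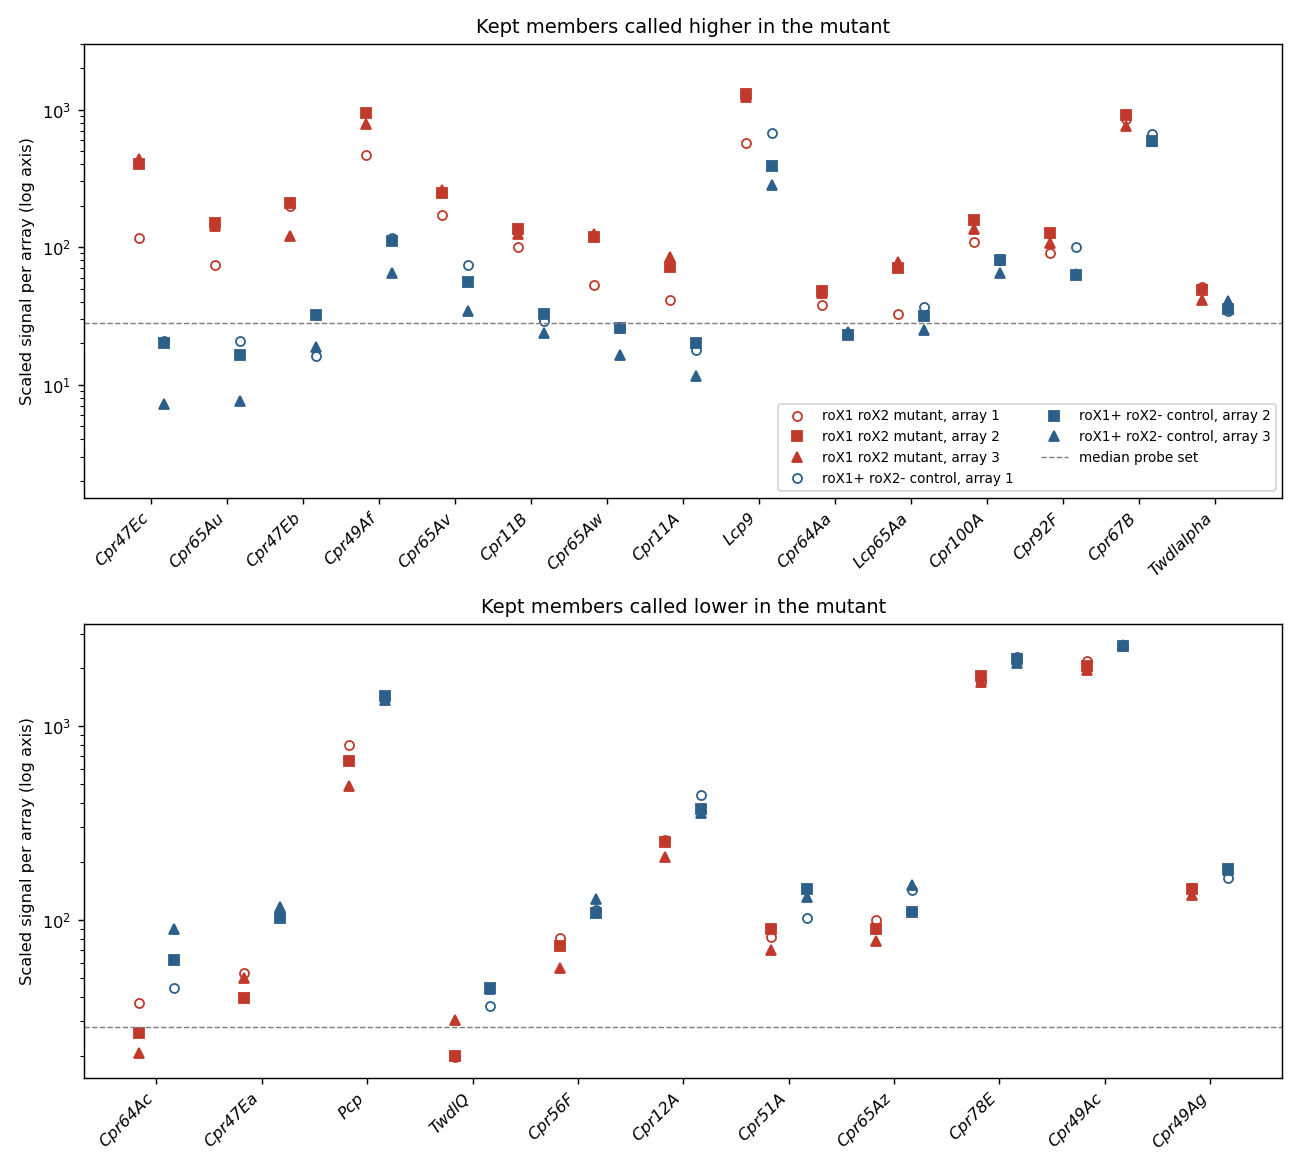
Scaled signal on each array (log axis) of the 15 kept members called higher (top) and the 11 called lower (bottom), mutant arrays in red and control arrays in blue, with the median probe set (28.0) as a dashed line. Lcp9, Lcp65Aa and Cpr92F are the risers whose groups overlap.

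The brightest members fell slightly. Cpr49Ac, with the highest mean signal of all members, had 2167, 2053 and 1957 on the mutant arrays, against 2592, 2593 and 2625 on the control arrays, and was 21.0% lower in the mutant (log2 -0.34, SE 0.0516, limma adjusted p = 0.00109). Cpr78E read 1679.6, 1805 and 1685 in mutant larvae, against 2261, 2206 and 2103 in control larvae and was 21.3% lower (SE 0.0546 on the log2 scale, limma adjusted p = 0.00128). In both genes the groups were separate and the replicates lay close together. Cpr49Ag fell by a like amount, with 147, 145 and 135 in mutant larvae, against 165, 183 and 180.5 in control larvae (log2 -0.31, limma adjusted p = 0.0139). Its call was lost without rescaling (log2 -0.18, adjusted p = 0.144) and without control array 3 (adjusted p = 0.0544, both limma). Cpr60D, also bright, had 508, 795 and 838 in mutant larvae, against 706, 514 and 447 in control larvae and did not pass (log2 0.35, limma adjusted p = 0.205). Without mutant array 1 the Cpr60D difference was 0.58 (limma adjusted p = 0.0151).

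Pcp, which encodes a pupal cuticle protein, had the third highest control mean of all members. It stood at 803, 664 and 494 in mutant larvae, against 1384, 1423 and 1358 in control larvae. The mean was 654 ± 155 in mutant larvae, against 1388 ± 32.5 in control larvae (SD, n = 3 each), so that the control was 2.17-fold higher (log2 -1.11, SE 0.155, limma adjusted p = 0.000734). The fall passed in all 17 alternative fits run, with log2 differences between -1.28 and -0.93.

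The other falls in the Cpr family lay between -1.20 and -0.58. Cpr64Ac had 37.4, 26.2 and 20.6 in mutant larvae, against 44.4, 62.1 and 89.9 in control larvae (log2 -1.20, SE 0.284, limma adjusted p = 0.00798). Its mutant mean, 28.1, lay close to the median probe set, and with an offset of 50 the difference was -0.55. Cpr47Ea was at 53.4, 39.8 and 49.9 in mutant larvae, against 105, 102 and 116 in control larvae (-1.19, SE 0.123, limma adjusted p = 0.000237). The arrays of each group lay close together for Cpr47Ea, while the Cpr64Ac controls were themselves spread over 2-fold, and neither gene overlapped between groups.

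Cpr56F read 81.1, 73.3 and 56.7 in mutant larvae, against 113, 109 and 129 in control larvae (-0.74, limma adjusted p = 0.00291). Cpr51A read 81.4, 89.9 and 70.2 in mutant larvae, against 102, 144 and 132 in control larvae (-0.64, limma adjusted p = 0.00683). Cpr65Az read 99.6, 90.2 and 78.2 in mutant larvae, against 143, 109 and 151 in control larvae (-0.58, limma adjusted p = 0.00953). The groups did not overlap in any of these 3 genes. Cpr78Ca stood at 28.6, 48.1 and 50.6 in mutant larvae, against 81.3, 64.9 and 50.6 in control larvae and missed the threshold (-0.65, limma adjusted p = 0.0529), and Cpr67Fa2 had 41.3, 85.4 and 71.8 in mutant larvae, against 58.7, 49.5 and 50.7 in control larvae (0.26, limma adjusted p = 0.384). Cpr67Fa2 has a near copy, Cpr67Fa1, and another probe set is listed for the pair, so its own level is uncertain. Without mutant array 1 the difference of Cpr67Fa2 was 0.57 (limma adjusted p = 0.0041).

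The Twdl and Ccp84 families were mostly dim. TwdlQ fell, with 19.5, 19.97 and 30.5 in mutant larvae, against 36.1, 44.8 and 43.9 in control larvae (log2 -0.86, SE 0.187, limma adjusted p = 0.00558). Its mutant mean lay under the median probe set, and with an offset of 50 the difference was -0.32. TwdlD, the gene of the short and stout larvae, stood at 31.7, 45.1 and 45.9 in mutant larvae, against 48.6, 39.9 and 42.6 in control larvae and did not pass (-0.11, SE 0.159, limma adjusted p = 0.578). Ccp84Ae, the kept member of the 84A group, had 26.1, 37.2 and 34.5 in mutant larvae, against 37.1, 36.0 and 43.1 in control larvae (-0.26, limma adjusted p = 0.175). Both of these genes overlapped between the groups.

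Many cuticle genes lie side by side, and neighbours went in opposite directions. In chromosome order the 7 Cpr47E genes on 2R run from Cpr47Ea, which fell, over Cpr47Eb and Cpr47Ec, which rose, to Cpr47Eg. Cpr47Eg was under the filter, with 115, 369.9 and 193 on the mutant arrays, against 6.61, 1.22 and 4.73 on the control arrays. It passed without the signal filter (limma adjusted p = 0.000325), and its log2 difference with 50 added to the signal was 2.24, close to the 2.34 of Cpr47Ec on the same scale. Between them, Cpr47Ee stood at 12.4, 9.99 and 9.11 in mutant larvae, against 16.7, 20.3 and 25.5 in control larvae, while Cpr47Ed was far under the median probe set on every array.

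The 8 Cpr49A genes on 2R showed the same mixture. Cpr49Af rose 7.52-fold between Cpr49Ae, a dim gene, and Cpr49Ag, which fell. Cpr49Ab, also dim, had 6.21, 5.003 and 4.74 in mutant larvae, against 36.8, 19.0 and 24.3 in control larvae and passed downward without the signal filter (log2 -2.28, limma adjusted p = 0.000357). On 3L, 19 genes and pseudogenes of the 65A region lie together, 11 of them with a probe set of their own. Of the 6 kept, Cpr65Au, Cpr65Av, Cpr65Aw and Lcp65Aa rose, Lcp65Ac did not pass and Cpr65Az, at the far end, fell. Over all genes tested 23.1% were higher and 32.4% lower. Cpr65Au and Cpr65Aw reached the filter through the mutant group alone, and the call of Lcp65Aa was lost on leaving out most single arrays. The count therefore shows no lean of the 65A genes upward. Acp65Aa, named for the adult cuticle, lies next to Lcp65Aa and read 6.74, 4.19 and 9.03 in mutant larvae, against 7.74, 8.12 and 6.25 in control larvae, far under the median probe set in both groups. In the pair of Cpr64A genes kept, Cpr64Aa rose and Cpr64Ac fell. Differences between neighbours were not tested.

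**Figure D3:**
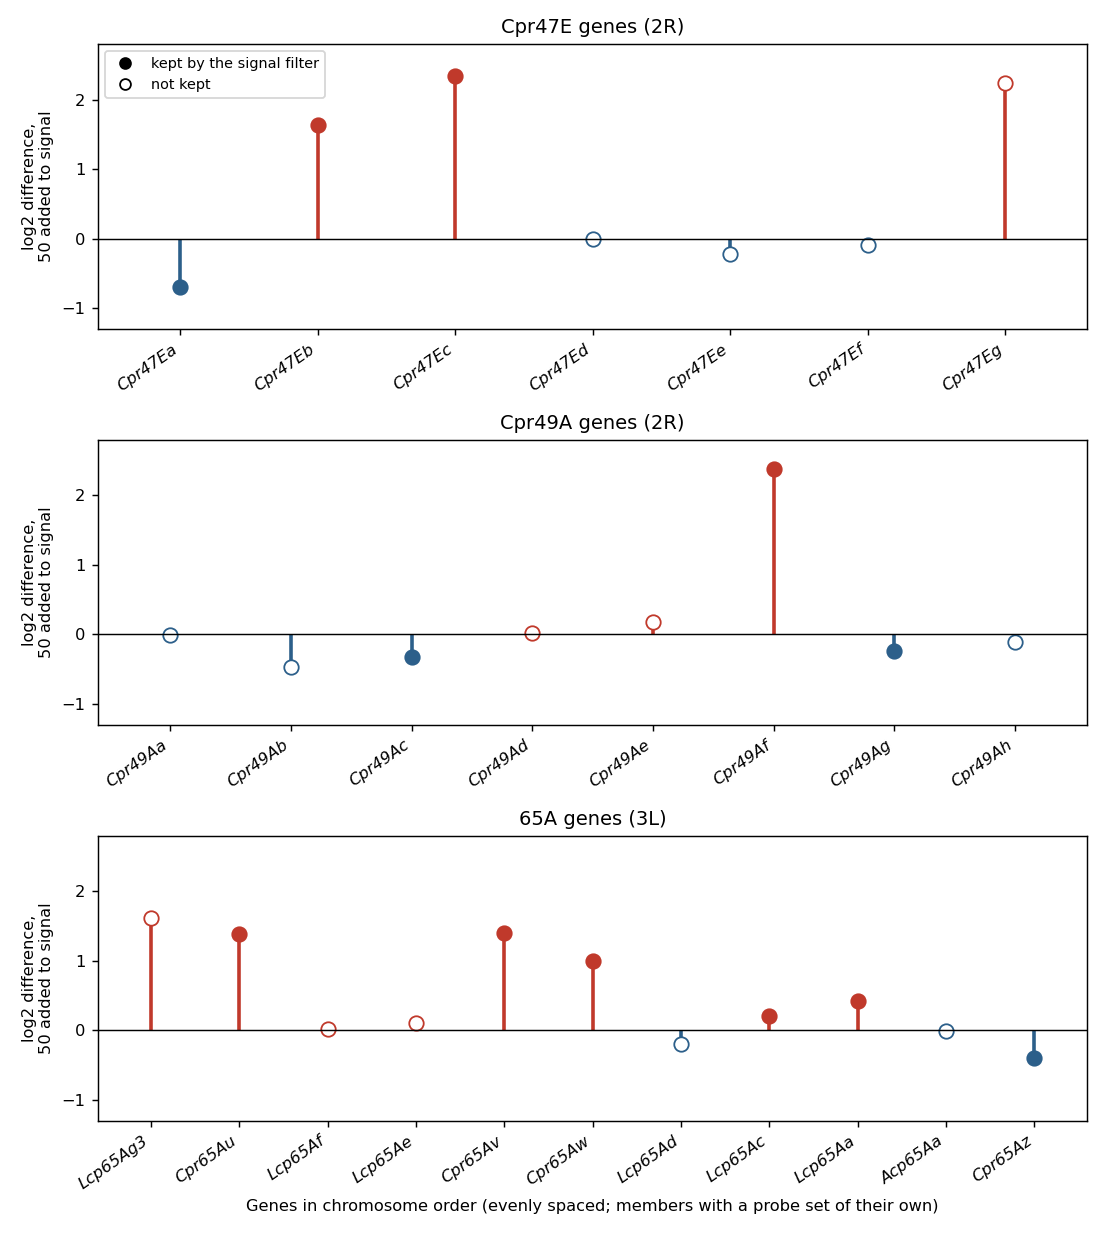
Log2 difference (mutant minus control, with 50 added to the signal so that dim genes can be shown) of the Cpr47E, Cpr49A and 65A genes in chromosome order, evenly spaced. Filled points passed the signal filter and open points did not. Each group holds genes above and below 0, such as Cpr47Ea (-0.69) and Cpr47Eb (1.63).

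With no signal filter, all 102 members were tested, and 22 were higher and 19 lower, beside 17.5% and 25.8% of all genes in that fit. When genes were instead kept by their linear mean signal, an alternative chosen after seeing the data that called 23.4% of all genes higher and 32.4% lower (55.8% in all), 35 members were kept, 18 higher and 11 lower. The 3 added were Cpr47Eg, Lcp65Ag3 and Cpr78Cc, by mean signal the brightest of the members left out. Their control means, 4.19, 5.38 and 9.61, lay far under the median probe set. They were kept through the mutant group alone and could hardly fail to be called higher. Cpr78Cc had 18.9, 72.6 and 57.6 in mutant larvae, against 10.3, 9.86 and 8.64 in control larvae, so that mutant arrays 2 and 3 stood well apart and mutant array 1 did not reach the median probe set.

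Arrays of the same group differed in the members that rose. Mutant array 1 was the lowest mutant array for 12 of the 15 kept members that rose, against 40.3% of all genes that rose. Control array 1 was the highest control for 9 of the 15, against 39.4% of all genes that rose. The median deviation of the 15 risers from their control mean was 1.26 on mutant array 1 and 2.15 and 2.13 on arrays 2 and 3, against 0.21, 0.11 and -0.29 on the control arrays. Over all genes that rose the medians were 0.55, 0.59 and 0.52 on the mutant arrays. Of the 15 risers, 6 reached the signal filter through the mutant group alone, which favours large deviations. The medians therefore do not measure how far cuticle genes rose beside other genes. Array order and medians were not taken apart for the 9 risers that reached the median probe set in both groups. The 11 members that fell stood at -0.58, -0.62 and -0.83 on the mutant arrays and at -0.03, -0.01 and 0.08 on the controls. Whether the 3 preparations differed in age or handling is not given in the labels, and its part in these values was not tested. Without mutant array 1, 17 kept members were higher and 11 lower, and rises made up 42.0% of all calls over all genes.

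**Figure D4:**
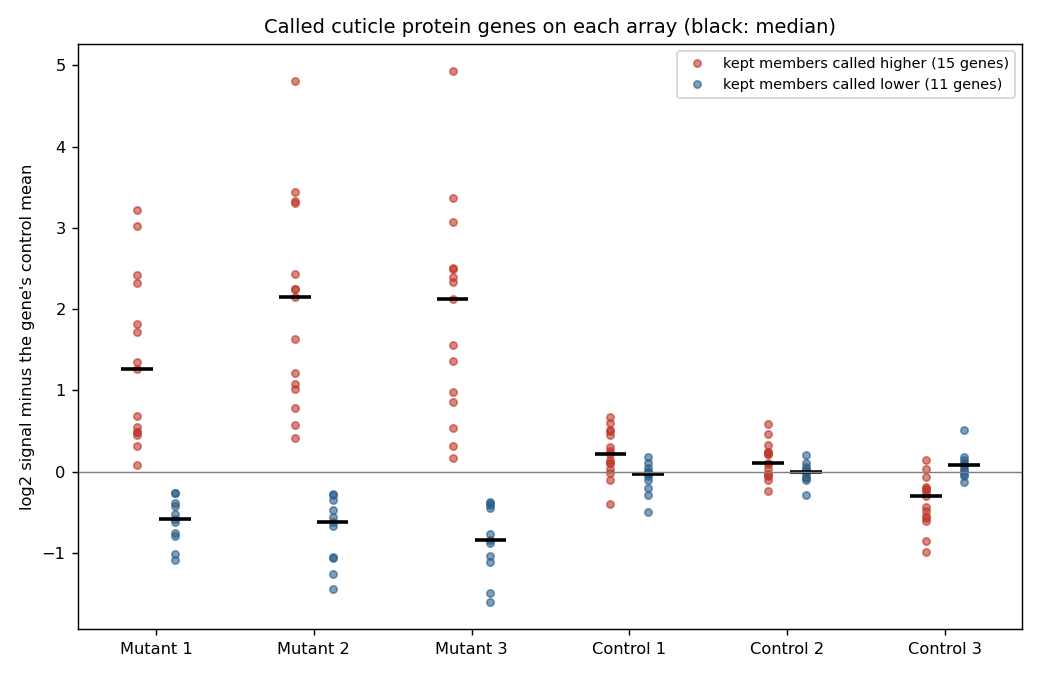
Log2 signal of each called cuticle gene minus its control mean, on each of the 3 mutant and 3 control arrays, with medians as black bars. The risers (red) have a median of 1.26 on mutant array 1 and of 2.15 and 2.13 on mutant arrays 2 and 3. Of the 15 risers, 6 reached the signal filter through the mutant group alone, which favours large deviations.

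The cuticle is built with other proteins and enzymes, whose lists are read here beside the 23.1% of all genes that were higher and the 32.4% that were lower. Of 15 kept genes listed as cuticle proteins of other families, 4 rose and 4 fell, shares near those of all genes. Among them were Gasp (log2 0.76), Mur18B (0.998) and obst-B (0.94) upward and obst-A (-0.51) downward (limma adjusted p between 0.000237 and 0.00201). The list also holds Peritrophin-15a and Peritrophin-15b, which are named for the lining of the midgut and not for cuticle. Peritrophin-15b was among the falls (log2 -0.36, limma adjusted p = 0.0282). In the list for chitin synthesis, assembly and turnover 8 of 19 rose and 3 fell. The chitin deacetylase genes verm (1.21) and serp (0.69) and the chitin synthase gene kkv (1.17) rose, and the chitinase gene Cht10 (-0.77) and Gnpnat (-0.79), an enzyme gene for the chitin precursor, fell. Tanning, the hardening and darkening of new cuticle, and pigment formation were covered together by 15 kept genes, of which 2 rose and 6 fell. The falls included yellow-f (-1.11), AANATL2 (-1.27), yellow-b (-0.73) and Ddc, dopa decarboxylase (-1.14), while the pigment gene DhpD rose (0.80).

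Zona pellucida domain genes, whose proteins link the epidermis to the cuticle, gave 1 rise in dpy (0.43) and 2 falls, in tyn (-1.09) and neo (-0.81), of 6 kept. A further gene of that list, trn, encodes the leucine-rich repeat protein Tartan and was left out after seeing the data, since it has no such domain. Of 13 kept regulators of epidermal and moulting genes 7 fell, including Hr39 (-0.86), br (-0.79), drm (-0.50) and usp (-0.47), and 0 rose (limma, 0 also at an unadjusted p under 0.05). Without rescaling 4 regulators fell, and with no signal filter 2 rose. Medians of the 5 lists were -0.05 for other cuticle proteins, 0.12 for chitin, -0.11 for tanning and pigment, -0.27 for zona pellucida genes and -0.42 for regulators, against -0.06 over all genes.

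The larvae hold many tissues besides the epidermis, and no listed marker of them stood at or below 0 on every array. Counts of markers are also read beside the 23.1% of all genes that were higher and the 32.4% that were lower. Of 15 kept epidermal markers 2 rose and 6 fell, and the summed signal of the 18 listed was 2969.8 to 3808 in mutant larvae, against 3963 to 4256 in control larvae, with falls in sha (log2 -1.38), knk (-0.64) and Ddc and rises in kkv and cora (0.56). Without Ddc the sum was 2578 to 2982 in mutant larvae, against 2825 to 2989.5 in control larvae, so that the groups overlapped. The genes knk, kkv and Ddc are also in the chitin or tanning lists. Of 6 kept tracheal markers 3 rose, Gasp, verm and serp, which are also in the lists above, and the summed signal of the 8 listed was 2179 to 2445 in mutant larvae, against 1491 to 1582 in control larvae. Most of that sum was the signal of Gasp, verm and serp. The other kept tracheal markers, pio (log2 -0.17), vvl (-0.15) and uif (0.05), did not pass. Muscle markers rose in 6 of 9 (sums 5252 to 7432 in mutant larvae, 4157 to 5077 in control larvae), fat body markers in 3 of 6 with 1 fall (9134 to 10724 in mutant larvae, 9184 to 9516 in control larvae) and midgut markers in 3 of 7 with 1 fall (5903 to 6691 in mutant larvae, 5690.0 to 6087 in control larvae). Glue gene markers of the salivary gland fell in 6 of 7 (14325 to 14799 in mutant larvae, 17559.7 to 17945 in control larvae). Without rescaling or with quantile scaling 2 glue genes fell, and without rescaling 4 epidermal markers rose and 3 fell. Hemocyte markers gave 1 rise and 4 falls of 9 (1339 to 1453 in mutant larvae, 1424 to 1628 in control larvae), and disc markers 1 rise and 3 falls of 8 (335 to 422 in mutant larvae, 406 to 485 in control larvae). Their part in the cuticle gene values was not tested.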

How the data were processed

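The 6 samples were each hybridised to a 1-colour Affymetrix array. Linear intensity values per probe set were deposited, and GCOS 1.2 is the tool that the submitters' processing notes name. The series' design text states a filter of genes on perfect match against mismatch signals and a scaling that set the autosomal median of every array to 100. The medians of the deposited intensity values (102 to 108 over all probe sets) did not settle on which genes the authors scaled, and the sources used here do not give how they summarised probes. From 110 to 165 values of an array were not above 0 and took the lowest value above 0.

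Probe sets were named from the platform annotation, updated through the RefSeq gene table (Release 6 plus ISO1 MT), which was used for names, chromosomes and gene order. Of 18769 probe sets other than controls, 13647 had 1 gene. The 402 with several genes were not used, among them 4 listed only for members and 2 listed for a member and another gene. The upper 50% by mean log2 signal were kept, and each gene was represented by its brightest probe set (7801 genes). Arrays were scaled by factors of 0.246 to 0.280. Groups were compared with limma 3.58.1 in R 4.3.3 (lmFit, eBayes with trend), with group as the only term. In data simulated from these 7801 genes 86% of log2 falls of 1 and 88% of rises of 1 were recovered.

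Members and lists were chosen with earlier results of these data known, and the lists and the rule for named genes are not independent of them. Named were all kept members outside Cpr, up to 20 Cpr genes with the largest differences, up to 6 kept Cpr genes that did not pass, the 3 brightest members left out and up to 4 genes of smallest p per list. Other dim members were named after their values were seen, as were Cpr49Ag and cora. Alternatives were the scaling, an offset, the signal filter, the probe set choice, the variance model, a replicate block and leaving out each array. Promoter and protein sequences were not analysed here.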

Additional observations from a re-analysis of the deposited data

How the results depend on the processing

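The kept members named kept their direction in every alternative they were tested in, except TwdlD, which did not pass and stood at 0.016 without rescaling and at -0.20 to 0.064 on leaving out 1 array (0.064 without mutant array 1). The dim members named were tested with no signal filter and, for Cpr47Eg, Lcp65Ag3 and Cpr78Cc, with the linear filter. The counts of kept members were 11 to 17 higher and 11 to 12 lower on leaving out 1 array, with medians of 0.16 to 0.51. Counts over all 7801 genes moved as well in these fits, between 1409 and 1819 higher and between 2112 and 2509 lower. With the upper 40% of probe sets 9 members were higher, as fewer were tested (22). With no signal filter 19 were lower, and the median log2 difference of kept cuticle members, then all 102, was -0.024. Over the 25 measured in both groups, a choice made after seeing the data, 9 were higher and that median was -0.11. With the replicate block, 11 members were higher and 10 lower, and rises made up 41.4% of all calls over all genes. The block ended the calls of Lcp9 (adjusted p = 0.0540), Lcp65Aa (0.0655), Twdlalpha (0.0816), Cpr49Ag (0.0525) and Cpr92F (0.0836, all limma). The deviations of arrays with the same replicate number correlated at -0.34, -0.06 and -0.38, and those of arrays with unlike numbers at -0.36 to 0.51. With 3 arrays per group these values cannot settle whether preparations of the 2 groups were handled together. Robust eBayes also ended the calls of Lcp65Aa (0.0689) and Cpr92F (0.0531), and no signal filter those of Lcp65Aa (0.0512) and Cpr92F (0.0550). Cpr78Ca passed with an offset of 50 (0.0465), without mutant array 3 (0.0368) and without control array 3 (0.0353). Among the other lists, cuticle proteins of other families had 2 falls without rescaling and 2 to 4 on leaving out 1 array. Tanning and pigment genes had 4 rises without rescaling or with no filter, 1 with the upper 40% and 1 to 5 on leaving out 1 array. Zona pellucida genes, less trn, had 0 rises with no filter, the upper 40%, the replicate block or the linear filter and 0 to 1 on leaving out 1 array. Regulators had 4 falls without rescaling and 12 with every probe set, and 2 rises with no filter, and chitin genes had 5 falls with every probe set. Of the counts of marker lists 29 moved by over 1.5 times and 243 did not. The cause of these moves was not tested. Dim signals limit the size of every fold against a group under the median probe set.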
